A study of Mus musculus with 2 samples.

Results

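Genes of DNA methylation and demethylation were described by when their part of the genome replicates. They were Dnmt1, Uhrf1, Dnmt3a, Dnmt3b, Dnmt3l, Tet1, Tet2, Tet3 and Tdg. The genes were chosen by name, for their place in the pathway, and all 9 of 9 were matched among 21225 protein-coding genes with a value. The cells were 46C, a mouse embryonic stem cell line (strain 129P2/Ola). It is a single line known for a fluorescent reporter at the neural gene Sox1, kept undifferentiated with leukemia inhibitory factor. All cells were given 50 µM bromodeoxyuridine (BrdU), a thymidine analogue that marks newly made DNA, for 2 h. They were sorted by DNA content into an early S and a late S fraction, with 1 library of BrdU-labelled DNA from each. The deposited table joins both libraries in 1 score per position, smoothed over 300 kb, so each gene has a single value that belongs to the pair, with no replicate, no error between experiments and no test. A score above 0 was taken to mean early, because the table is named for early against late, and this is an assumption. How the score was scaled, its log base and where its zero lies are not stated in the labels or the table, and the read depth is unknown. The score carries no expression, so the labelled cell type could not be checked against its marker genes, and nothing below says how active a gene was.

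Mammalian DNA methylation is a methyl group on cytosine, mostly where a cytosine is followed by a guanine (CpG). Dnmt3a and Dnmt3b place new marks with the help of Dnmt3l, a related protein without catalytic activity, and Dnmt1, guided by Uhrf1, copies the marks onto the new strand just after replication. The Tet enzymes oxidise the methyl group, and Tdg, a DNA glycosylase, cuts out the further oxidised forms so that repair can restore plain cytosine. Mouse embryonic stem cells are known for tolerating the loss of all 3 Dnmt methyltransferases, and Tet1 and Tet2 are their main Tet enzymes, while Tet3 is best known from the egg and the zygote. In mammals, early replication is generally found with gene-rich, active chromatin and late replication with gene-poor, silent chromatin.

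All 9 genes had early scores, and 8 of them lay close together, while Tet2 stood lower. The scores at the gene midpoints were 1.60 for Dnmt3b, 1.55 for Tet1, 1.50 for Uhrf1, 1.45 for Tdg, 1.43 for Dnmt1, 1.35 for Dnmt3a, 1.27 for Dnmt3l, 1.22 for Tet3 and 0.48 for Tet2. Above 0 lay 9 of 9, against 73.5% of all protein-coding genes. Above the autosomal median of -0.30 lay 9 of 9 as well, against 78.5%. Above 1 lay 8 of 9, against 50.5%. The median of the 9 was 1.43, beside 1.02 for protein-coding genes (quartiles -0.08 and 1.52), and 8 of the 9 lay above that median. Early replication is thus the common state of a protein-coding gene here, and the list is not shown to stand apart from other genes by these counts.

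**Figure D1:**
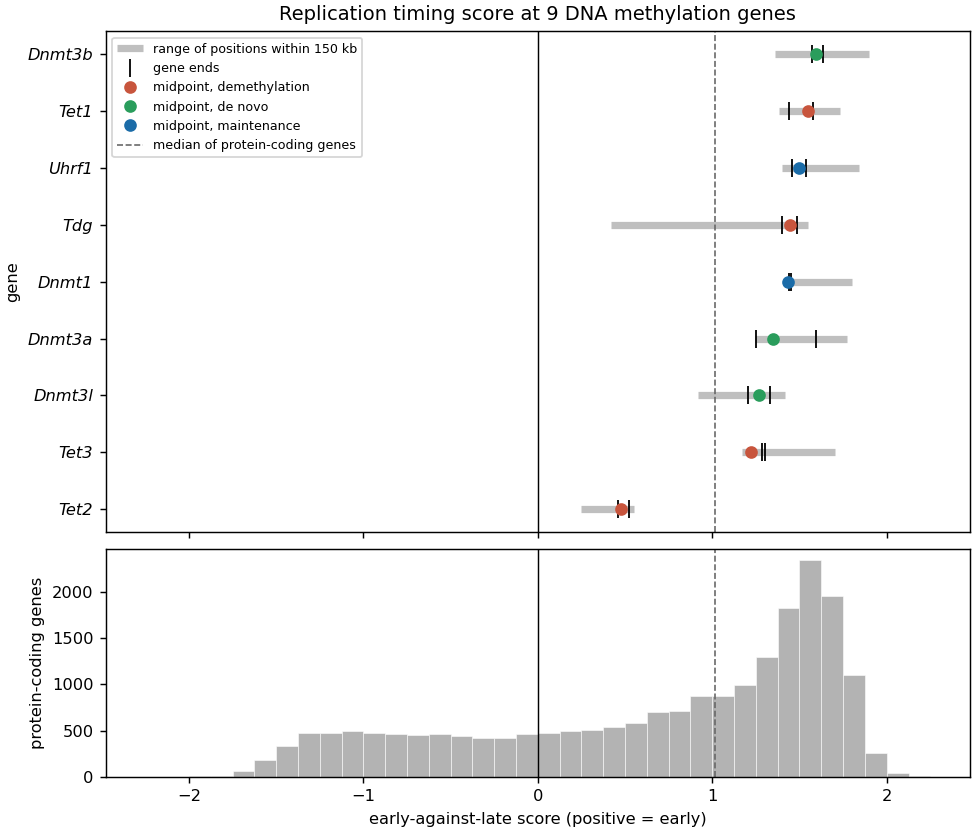
Upper panel: score at the midpoint (coloured point), at both gene ends (black ticks) and the range of positions within 150 kb (grey bar) for the 9 genes. Lower panel: number of protein-coding genes per score bin, with the median of 1.02 dashed; 8 genes lie between 1.22 and 1.60 and Tet2 lies at 0.48.

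Neighbours in the order of the 8 higher genes were not separated. They differed by 0.015 to 0.081. As a stand-in for an error, the SD of the positions within 150 kb of a midpoint was taken, which shows how fast the profile changes around a gene and not how well it would repeat. It ranged from 0.066 at Tet2 to 0.32 at Tdg. All 7 differences between neighbours among the higher genes were smaller than the lower of both local SDs. Over all 28 pairs of these 8 genes, 10 differed by more than both local SDs, such as Dnmt3b and Dnmt3l. The remaining step, from Tet3 to Tet2, was 0.74.

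Upstream sequences are shown for the start with the most CpG (Tet2), for the start with the fewest and another start of the same gene (Dnmt1), and for one of the CpG-poor starts of Dnmt3l, since CpG is the substrate of these enzymes. The RefSeq promoter table (GRCm38.p6, whose chromosomes are those of mm10) matched all 9 genes, with 16 annotated starts. The letters are those of the C57BL/6J reference and not of the 129P2/Ola cells, and CpG content is not methylation, which was not measured. The motif counted was CG, which reads the same on both strands. It occurred at least once in the 250 bases upstream of all 16 starts, as it did in 92.1% of 32841 promoters, and its number ranged from 2 at the first Dnmt1 start to 51 at Tet2. The median was 16 upstream of the members' starts and 6 over all promoters. Below, each CG is in capitals and the last base is the one before the start. The Tet2 stretch lies at chr3:133544391-133544640 on the minus strand, and 99.9% of promoters held fewer CG. The Dnmt1 starts numbered 1 and 3 follow stretches at chr9:20959889-20960138 and chr9:20952624-20952873, both on the minus strand, with 2 and 26 CG. The stretch before start 3 is upstream of that start only, and lies downstream of start 1 and of start 2 (at 20952979). The second Dnmt3l start follows chr10:78049592-78049841 on the plus strand, with 4 CG.
Tet2: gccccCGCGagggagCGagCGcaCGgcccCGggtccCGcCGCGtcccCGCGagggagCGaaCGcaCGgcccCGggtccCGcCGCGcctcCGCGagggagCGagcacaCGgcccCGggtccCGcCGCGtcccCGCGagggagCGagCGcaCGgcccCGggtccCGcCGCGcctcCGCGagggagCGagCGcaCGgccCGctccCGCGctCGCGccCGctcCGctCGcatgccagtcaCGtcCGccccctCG
Dnmt1 start 1: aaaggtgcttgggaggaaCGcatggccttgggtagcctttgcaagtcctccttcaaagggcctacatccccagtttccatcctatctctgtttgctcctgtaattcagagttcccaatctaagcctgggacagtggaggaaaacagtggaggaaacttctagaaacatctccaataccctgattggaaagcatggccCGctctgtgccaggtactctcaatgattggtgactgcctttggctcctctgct
Dnmt1 start 3: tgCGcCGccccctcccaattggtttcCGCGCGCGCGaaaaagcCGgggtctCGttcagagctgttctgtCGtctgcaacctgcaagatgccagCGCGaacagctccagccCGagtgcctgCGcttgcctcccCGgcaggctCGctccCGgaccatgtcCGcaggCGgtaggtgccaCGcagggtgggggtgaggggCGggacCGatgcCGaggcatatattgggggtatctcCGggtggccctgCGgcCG
Dnmt3l start 2: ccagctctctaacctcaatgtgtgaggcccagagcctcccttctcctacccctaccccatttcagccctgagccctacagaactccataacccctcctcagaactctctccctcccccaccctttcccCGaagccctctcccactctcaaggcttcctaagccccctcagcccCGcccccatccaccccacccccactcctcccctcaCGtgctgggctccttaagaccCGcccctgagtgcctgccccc
The stretch richest in CG belonged to the gene with the lowest score, while other CG-rich starts had high scores. Starts 1 and 2 of Dnmt3a, with 38 and 40 CG, and start 2 of Uhrf1, with 30, all read 1.54, and start 1 of Dnmt1, with 2, read 1.44. Starts 1 and 3 of Dnmt1 are 7.27 kb apart and read 1.44 and 1.43, a distance far below the smoothing width, so the score cannot tell them apart.

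**Figure D2:**
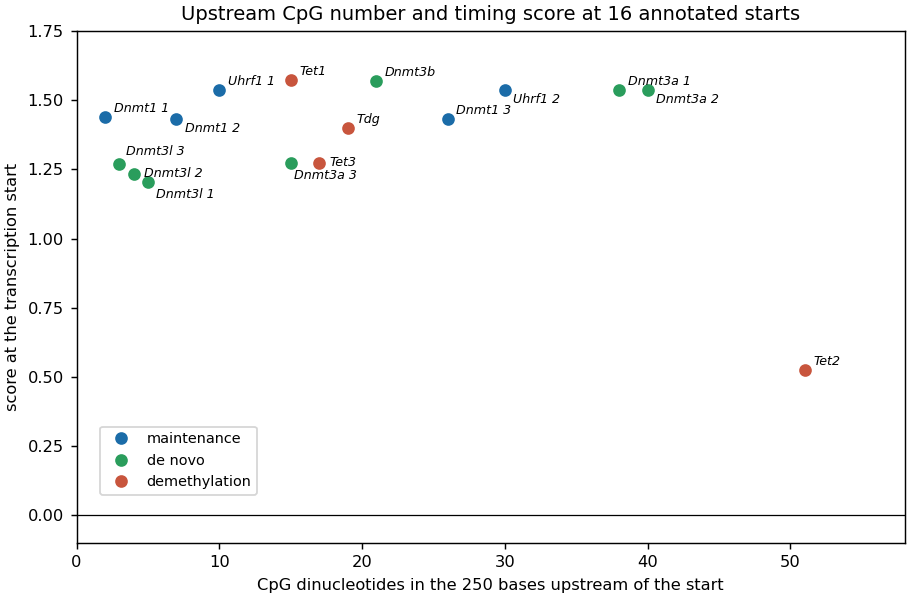
CpG dinucleotides in the 250 bases upstream (x axis) and score at the transcription start (y axis) for 16 annotated starts of the 9 genes; a number after a name counts the starts of that gene in the direction of transcription. Tet2, with 51, lies alone at 0.53, and the other 15 starts lie between 1.20 and 1.57 whether they have few or many.

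Dnmt1, the maintenance methyltransferase, lay at chromosome 9, 20907206 to 20959888, and its score was 1.43 at the midpoint, 1.45 at the lower-coordinate end and 1.44 at the higher-coordinate end. The gene was flat, since its 9 positions ran from 1.43 to 1.45. It lay in an early run, a stretch of positions that are all above 0, from 20328712 to 22772595 (2.44 Mb, median 1.54) with 73 protein-coding genes. The midpoint was 0.60 Mb from the lower end of that run and 1.84 Mb from the higher end. The highest position of the run, 1.96, was 0.97 Mb away beside Rab3d, a small GTPase gene of secretion. At the lower end the score fell from 1.42 at 150 kb inside to -0.80 at 150 kb outside, towards olfactory receptor genes such as Olfr849, the gene nearest the lowest position of the window (-1.39). The next genes on each side, the translation factor gene Eif3g (1.46) and the sphingosine phosphate receptor gene S1pr2 (1.45), had nearly the value of Dnmt1.

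Uhrf1, which binds half-methylated CpG and brings Dnmt1 to it, lay at chromosome 17, 56303337 to 56323486. Its score was 1.50 at the midpoint, and 1.54 and 1.46 at the lower and higher ends. Uhrf1 and Dnmt1, partners in one step, thus differed by 0.068. The early run around Uhrf1 was narrower, from 55739325 to 57412330 (1.67 Mb, 63 protein-coding genes). Uhrf1 sat in a shallow dip of it, since the median over the positions within 150 kb was 1.69 and the run's peak of 1.85 was only 0.16 Mb away, beside the phosphatase gene Ptprs. The 4 Mb around Uhrf1 were mostly late, with 46.1% of positions above 0. At 0.5 Mb to the lower side the score was 0.70 and at 1.5 Mb it was -1.36. On the higher side it was 1.62 and -1.37 at the same distances, so that late scores stood on both sides. The lowest position, -1.52, was close to the edge of the window beside Cntnap5c, a gene of the neurexin superfamily. The next genes were Arrdc5, of the arrestin domain family, at 1.57 and Kdm4b, of a histone demethylase, at 1.44.

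Among the de novo genes, Dnmt3a differed most from one end to the other. It is the longest of the 9 at 112.9 kb (chromosome 12, 3801559 to 3914443). The score fell from 1.59 at the lower-coordinate end, the side where transcription starts, to 1.35 at the midpoint and 1.25 at the higher end. A shorter Dnmt3a isoform is known to start inside the gene. Of the 3 annotated starts, the first and second, 0.18 kb apart, shared a score of 1.54 and had 38 and 40 CG upstream. The last, 84.8 kb further on, read 1.27 and had 15 CG. The next gene on the lower side, Dtnb, which encodes a dystrobrevin, had 1.74, and the next on the higher side, the hormone precursor gene Pomc, had 1.26. Dnmt3a lies near the start of its chromosome, and positions covered only 0.86 Mb of the lower side. Its early run went from 3088197 to 5229518 (2.14 Mb, 24 protein-coding genes), and beyond it on the lower side only a late stretch of 17.2 kb down to -0.43 was covered. On the higher side the score was 1.21 at 1 Mb and -1.55 at 2 Mb, with the lowest position of -1.79 at 1.69 Mb. The gene nearest to it, Klhl29, of the kelch-like family, had 0.069 at its own midpoint.

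Dnmt3b, the highest of the 9, also had the largest share of early positions in the 4 Mb around it. Within 1 Mb to each side its share was 97.6%, below 100% at Tdg and 99.3% at Dnmt3a. Dnmt3b lay at chromosome 2, 153649411 to 153687730, with scores of 1.57 at the lower end, 1.60 at the midpoint and 1.64 at the higher end. Of the 667 positions in its 4 Mb window, 98.8% were above 0. The exception was a narrow dip of 51.7 kb to -0.10, 0.36 Mb from the midpoint beside Bpifa2, of a family of secreted proteins of the mouth and airways. By sign, this dip ended the run of Dnmt3b at 154000325, 0.33 Mb from the gene. When the autosomal median was set to 0 the dip no longer counted, and the run was 9.02 Mb long in place of 2.63 Mb. With runs under 300 kb joined to their surroundings it was 8.84 Mb. The highest position of the window was 2.03, beside the transcription factor gene Sox12, 1.28 Mb away. The neighbours Commd7 (1.60) and Mapre1 (1.62), a gene of a microtubule end-binding protein, were alike in score.

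Dnmt3l, the cofactor without catalytic activity, had 1.27 at its midpoint, below Dnmt3b by 0.33 and below Dnmt3a by 0.080. It lay at chromosome 10, 78042287 to 78063622, with 1.20 at the lower end and 1.33 at the higher end. The gene sat on a rising flank, with a slope of 2.03 per Mb over the 300 kb around it. Its 3 starts, which had 5, 4 and 3 CG upstream, read 1.20, 1.23 and 1.27. Its neighbours were Aire (1.18), known for presenting self antigens in the thymus, and the T cell costimulator gene Icosl (1.35). The highest position of the window, 2.00, was 0.79 Mb away at Pofut2, a fucosyltransferase gene. The early run of 3.81 Mb held 95 protein-coding genes, and 61 genes had their midpoint within 1 Mb of that of Dnmt3l. The median was 28 over protein-coding genes and 32 over early ones. On the higher side the run ended 0.62 Mb away, where the score fell from 1.10 at 150 kb inside to -0.98 at 150 kb outside. The lowest position there, -0.99, was beside the olfactory receptor gene Olfr1356.

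**Figure D3:**
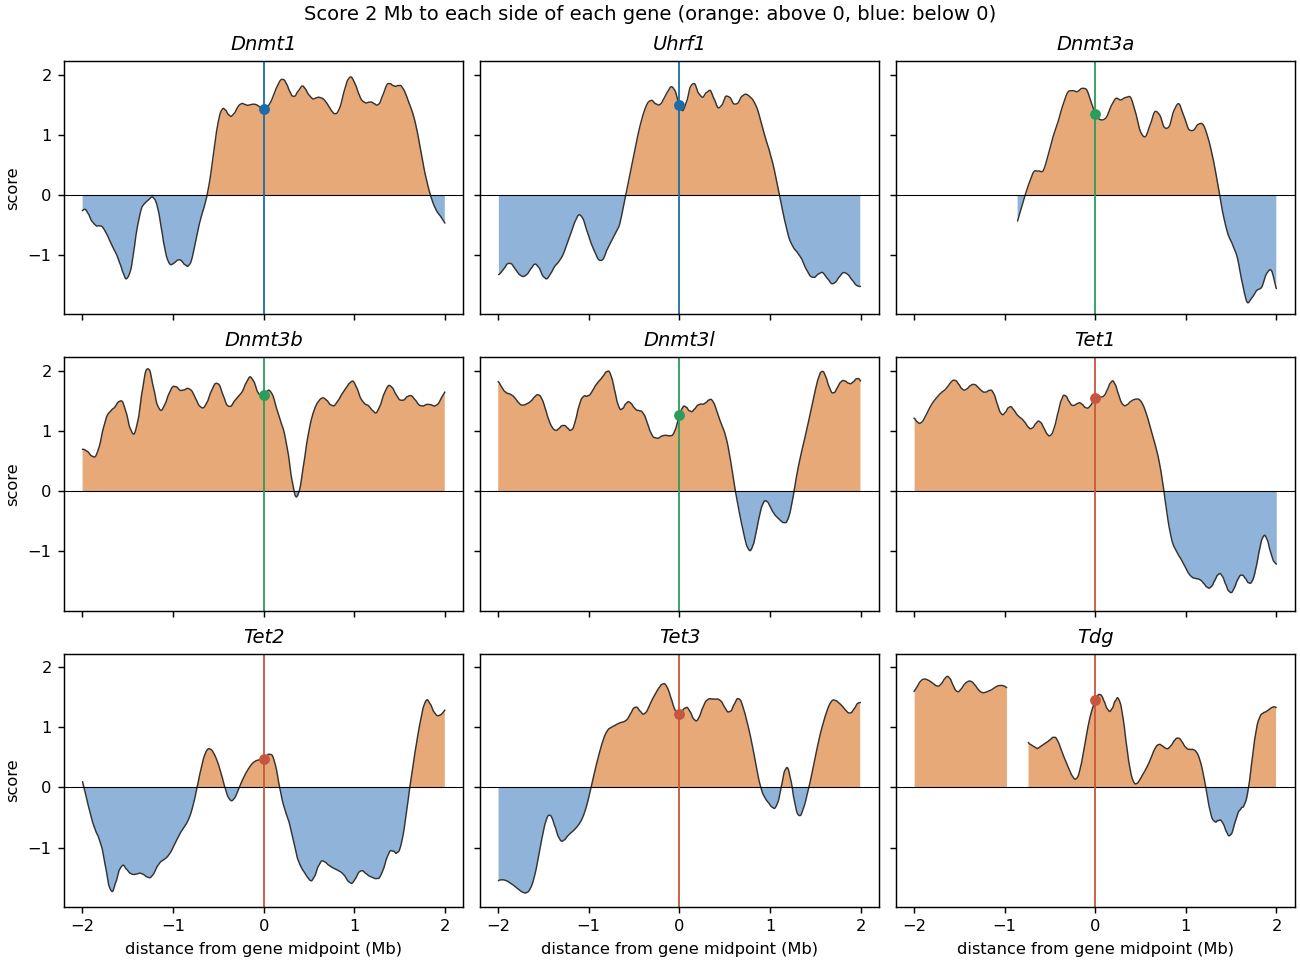
Score (y axis) against distance from the gene midpoint in Mb (x axis) for each of the 9 genes, orange above 0 and blue below; the coloured line and point mark the gene. Blank parts have no positions (the start of chromosome 12 at Dnmt3a and a gap of 243.8 kb at Tdg); Tet2 sits on an early run of 442.8 kb at the deposited zero point, and Dnmt3b has a single narrow dip to -0.10.

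The 3 Tet genes spanned 1.07 from the highest to the lowest, against 0.33 over the 3 Dnmt3 genes. Tet1, the most studied Tet enzyme of stem cells, had 1.55 at its midpoint (chromosome 10, 62804570 to 62887469), 1.44 at the lower end and 1.57 at the higher end, where transcription starts. It lay near the end of a long early run of 4.49 Mb with 62 protein-coding genes. That end was 0.76 Mb away, and across it the score fell by 2.16 within 300 kb, from 1.10 to -1.06. Beyond lay Ctnna3 and Lrrtm3, a catenin gene and a synaptic adhesion gene, with -1.37 and -1.48 at their midpoints. Of the 656 positions in its 4 Mb window, 70.3% were above 0. The highest position, 1.85, was 1.56 Mb away beside Prf1, the perforin gene of killer lymphocytes. Ccar1 (1.38) and the mitochondrial carrier gene Slc25a16 (1.58) were the neighbours of Tet1.

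Tet3, the Tet enzyme of the egg, had 1.22 at its midpoint (chromosome 6, 83362373 to 83457208), and both ends were higher, 1.28 and 1.30. The gene lay in a slight local dip beside a peak of 1.72 that was 0.17 Mb away at the bicarbonate transporter gene Slc4a5. Its neighbours, Bola3 (1.32), of iron-sulfur cluster assembly, and the deoxyguanosine kinase gene Dguok (1.33), were both higher than Tet3. The early run of 1.87 Mb held 40 protein-coding genes and ended 0.97 Mb to the lower and 0.90 Mb to the higher side. With runs under 300 kb joined it was 7.28 Mb long. On the lower side a late run of 9.11 Mb followed, with a lowest score of -1.75 beside Gcfc2, which had -0.56 at its own midpoint. On the higher side the next late run was short, 0.22 Mb down to -0.35, and at 2 Mb the score was 1.41 again.

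Tet2, an enzyme often mutated in blood cancers in humans, was the exception of the list. Its score was 0.48 at the midpoint, 0.46 at the lower end and 0.53 at the higher end (chromosome 3, 133463677 to 133545136), and 35.4% of protein-coding genes scored lower. The other 8 members stood above between 57.0% (Tet3) and 81.7% (Dnmt3b) of protein-coding genes. Among protein-coding genes of its own chromosome 3, Tet2 stood above 47.9%. Tet2 differed from Tet1 by 1.07 and from Tet3 by 0.74, both above the local SDs of these genes (0.098 at Tet1, 0.066 at Tet2 and 0.15 at Tet3). Tet2 was still above 0 at every place it was read, and at 0.78 when the autosomal median was set to 0.

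Tet2 lay on a small early run in a mostly late region, where 30.1% of the positions of the 4 Mb window were above 0. The run went from 133238787 to 133681538, 442.8 kb, and its peak was 0.55, only 0.056 Mb from the midpoint. This length depends on where 0 is set: it was 0.995 Mb when the autosomal median was set to 0, and 0.909 Mb with runs under 300 kb joined to their surroundings. The effect of the 300 kb smoothing on the score of Tet2 was not tested. Among 196 early runs of 300 to 600 kb on the autosomes, the median peak was 0.81 (quartiles 0.64 and 1.10), and 18.9% had a lower peak than that of Tet2. Early runs shorter than that of Tet2 held 4.07% of protein-coding genes, and 13.0% and 8.22% under these same alternatives. The runs of the other 8 members were between 1.67 and 4.52 Mb long. Besides Tet2 the run held 1 protein-coding gene, Ppa2, of a mitochondrial pyrophosphatase, at 0.32. The region was poor in genes, with 9 within 1 Mb of Tet2, and 10.5% of protein-coding genes had fewer.

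On the lower side of Tet2 the score dipped to -0.22 over 149.5 kb and then rose to a second small early region with a peak of 0.64 at Npnt, which encodes the matrix protein nephronectin, 0.60 Mb away. Between them lay Arhgef38 (-0.19), Ints12 (-0.11), of the Integrator complex, and Gstcd (0.23). Further out Dkk2, a Wnt antagonist gene, had -1.42, and the lowest position of the window, -1.73, was 1.67 Mb away beside Papss1, of sulfate donor synthesis, which had -0.52 at its midpoint. On the higher side a late run of 1.42 Mb followed, down to -1.59, and at 1.80 Mb the score reached 1.46 beside the dehydrogenase gene Bdh2. The next gene on that side was Cxxc4, at -1.32 (chromosome 3, 134236144 to 134262163). Cxxc4 encodes a CXXC domain protein also called Idax, known to bind Tet2 and to lower its protein level. The 2 midpoints are 744.7 kb apart with a single change of sign between them, 183.0 kb from the Tet2 midpoint, and their scores differed by 1.80.

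**Figure D4:**
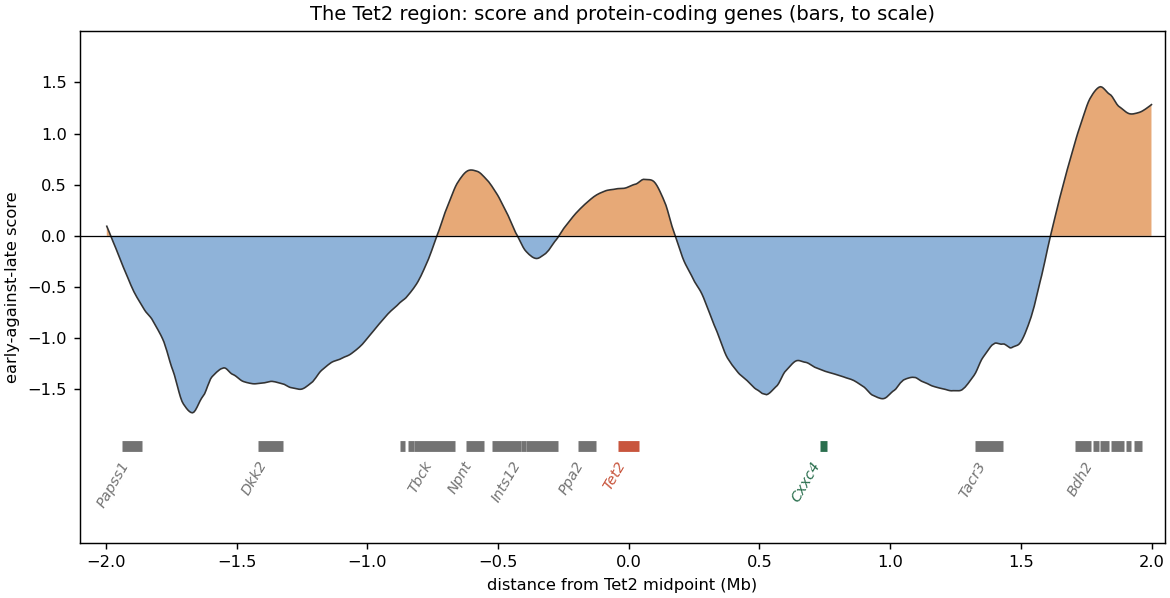
Score (y axis) against distance from the Tet2 midpoint in Mb (x axis), with protein-coding genes as bars drawn to scale below and some of them named. Tet2 (red) lies on an early run of 442.8 kb at the deposited zero point with a peak of 0.55, and Cxxc4 (green) lies in the late run that follows, at -1.32.

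Tdg, which cuts out the further oxidised forms, lay at chromosome 10, 82629814 to 82650799. It had 1.45 at its midpoint, 1.40 at the lower and 1.48 at the higher end. Its score changed fastest along the chromosome of all 9, with a slope of 2.75 per Mb over the 300 kb around it. Within 150 kb the positions ran from 0.42 to 1.55, so the value holds for the gene and less for its surroundings. At 0.25 Mb to the lower side the score was 0.19, and at 0.25 Mb to the higher side 1.48. At 0.5 Mb on the higher side it was 0.15. All of this lay within 1 early run of 4.52 Mb with 158 protein-coding genes, the longest run among the 9 at the deposited zero point. A gap of 243.8 kb without positions began 0.74 Mb to the lower side, and the score stepped from 1.66 to 0.75 across it. The lowest position of the window, -0.80, was beside the kinase gene Nuak1, which had 0.85 at its midpoint, and the highest, 1.85, beside Diras1, of a small GTPase. The neighbours of Tdg were 1190007I07Rik (1.37) and the glycosyltransferase gene Glt8d2 (1.54).

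Tet1, Dnmt3l and Tdg share chromosome 10, while the other 6 genes lie on as many different chromosomes. The midpoints of Dnmt3l and Tdg are 4.59 Mb apart. Their early runs were separated by 1 late run of 0.62 Mb, with its lowest score of -0.99. Dnmt3l was 0.62 Mb from the end of its run at that late stretch. Tdg was 3.30 Mb from the end of its own run there, and nearer to the other end. Tet1 is 15.2 Mb from Dnmt3l.

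Most of these genes lay near a change from early to late, as most early genes did. The window of 2 Mb to each side fell below 0 for all 9 genes, as for 89.9% of early protein-coding genes. It fell below -1 for 6 of them, against 66.5%, the exceptions being Dnmt3b, Dnmt3l and Tdg. The midpoint was within 1 Mb of an end of its early run for 8 of the 9, all but Tdg at 1.22 Mb. This is also common among genes, since 70.7% of early protein-coding genes lay within 1 Mb of such an end. Dnmt3b counts here only through its narrow dip, and Dnmt3a only through the late stretch of 17.2 kb at the first covered positions of its chromosome. When the autosomal median was set to 0 the count was 6, without Dnmt3b, Tet3 and Tdg, against 65.2% of early genes, and with runs under 300 kb joined it was 7, without Dnmt3b and Tdg, against 60.9%. Both counts were added after seeing the data. With runs joined, Dnmt3a counts only because the covered positions end 0.86 Mb from its midpoint, and that end is not a change from early to late. For Tet2 the distance was 0.18 Mb, and 19.1% of early protein-coding genes lay as near or nearer. The number of protein-coding genes within 1 Mb ran from 9 at Tet2 and 19 at Dnmt3a to 60 at Dnmt1, 61 at Dnmt3l and 65 at Uhrf1. The median over the members was 39, beside 28 for protein-coding genes and 32 for early ones.

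The other genes of the pathway were early in much the same measure as the 9. Of 52 genes listed 51 were matched, all but Dnmt3c. Above 0 lay 49 of the 51, against the same 73.5% of protein-coding genes, and above 1 lay 39, against 50.5%. Their median was 1.43. Scores below that of Tet2 were found for 4 of them, Cxxc4, Mbd5, Trdmt1 and Mbd1. Nearest to Tet2 in score was Idh1, at 0.49, one of the dehydrogenases linked to the alpha-ketoglutarate that Tet enzymes need. Next were the reader genes Mbd1, at 0.31, and Zbtb33, at 0.68.

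The list of readers of methylated CpG and their relatives was the most spread group after the Tet partners. Not every gene of this list is known to bind methylated CpG, such as Mbd3, Mbd5 and Mbd6. Of 11 genes, with a median of 1.09, 10 lay above 0, against 73.5% of protein-coding genes. Mbd4, a reader that is itself a DNA glycosylase, was the highest at 1.92. Mbd5 was the lowest at -0.11, but this long gene crossed a timing boundary: its ends read -1.04 and 0.89, and its midpoint read 0.19 when the autosomal median was set to 0. Uhrf2, the relative of Uhrf1, had 0.74, below the 1.50 of Uhrf1. Trdmt1, a relative of the Dnmt genes that methylates transfer RNA, had 0.16, on an early run of only 120.9 kb.

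Genes that finish demethylation by repair were early throughout. All 14 genes of base excision and deamination lay above 0, against 73.5% of protein-coding genes. Their median was 1.49, and they ran from the glycosylase genes Neil2 at 0.93 to Smug1 at 1.88. Ung, of uracil removal, had 1.47 and Apex1, the endonuclease that cuts behind Tdg, had 1.50. Gadd45b (1.70) and Mbd3 (1.53), of the list of readers and their relatives, lay on the same early run as Tdg, 1.71 and 2.24 Mb from it. The deaminase gene Apobec1 (1.55) shared 1 early run of 0.97 Mb with Dppa3 (1.63), which protects methylation in the zygote, so their values are not independent.

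All 12 regulators lay above 0. The share of all protein-coding genes above 0, 73.5%, stands beside this count and those that follow. The median of the regulators was 1.45, from the histone demethylase gene Kdm1b at 0.998 to Ctcf, of the insulator protein, at 1.97. The chromatin remodeller gene Hells had 1.41, and Usp7, of the deubiquitinase that binds Dnmt1 and Uhrf1, had 1.59. Of 8 Tet partners and CXXC proteins 7 lay above 0, from Cxxc4 at -1.32 to Cxxc5, its relative, at 1.89, and the glycosyltransferase gene Ogt, of a Tet partner, had 1.15. All 5 genes of methyl donor supply lay above 0, with a median of 1.47. Mat2b, of the regulatory subunit of methionine adenosyltransferase, had 0.89 and was the lowest. Ahcy, which removes the product of methylation, had 1.75 and was the highest. It lay 1.40 Mb from Dnmt3b, on the early run that begins beyond the dip.

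**Figure D5:**
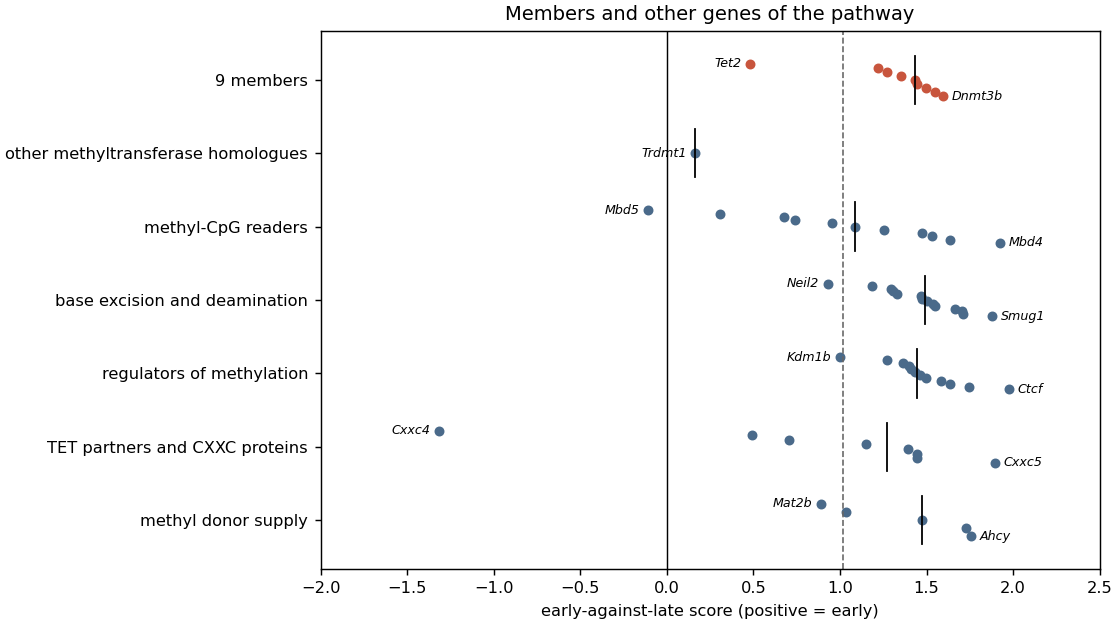
Score of each gene (x axis; points) for the 9 members and 6 lists of other pathway genes; the bar marks the list median, the dashed line the median of protein-coding genes (1.02), and the lowest and highest gene of each list are named. Cxxc4 at -1.32 and Mbd5 at -0.11 are the 2 genes left of 0.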

How the data were processed

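The authors' deposited table holds a score, 1 value per position, that sets the early against the late library after smoothing over 300 kb. Reads were aligned with Bowtie2 to mm10, per the submitters' processing notes; counting, scaling and log base are not stated there. DNA came from 10000 cells and was cut to 100 to 600 bp and amplified, per the labels' protocols, which adds uneven coverage that 1 pair of libraries cannot measure. Of 384798 positions (median spacing 5.78 kb), 4 had no value. Columns of per-sample values left unused numbered 0.

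Here, each gene took the position nearest its midpoint, at most 100 kb away and for the 9 genes at most 2.63 kb, with RefSeq coordinates of GRCm38.p6; 348 genes of scaffolds were left out. Runs are consecutive positions that share a sign, and a gap over 300 kb closes a run. A percentage of genes that score lower counts ties as equal shares. Python 3.11.15, pandas 2.3.3 and numpy 2.4.6 were used, and the run finder was tested on simulated data with clear steps. These held no gaps and no short runs, and the joining of runs was not tested on them. Named were all members, their next protein-coding genes, those at window extremes, and the extremes of each pathway list; other genes were named after their values were seen. Some genes of the lists count there but are not reported here by name. The members and lists were chosen with earlier results of these data known.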

Additional observations from a re-analysis of the deposited data

How the results depend on the processing

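All 9 genes stayed above 0 when the autosomal median was set to 0, at either gene end, at the first transcription start (chosen after seeing the data) and with the median of positions within 150 kb; medians inside the gene also left each of the 9 above 0. The zero point moved the median of the 9 from 1.43 to 1.74 and each member by 0.30. Reading another place moved a member by at most 0.24, at the lower end of Dnmt3a. The mean over the 9 was 1.32, and the median without Tet2, chosen after seeing the data, was 1.44. With 1 Mb to each side the median share of positions above 0 was 90.4%, against 70.3% with 2 Mb. Of the 51 other pathway genes, 50 lay above the autosomal median. The run around Tet2 was 0.995 Mb with that zero point and 0.909 Mb with runs under 300 kb joined, and the run around Tet3 was 7.28 Mb with them joined. No paired analysis was possible because there is 1 library per fraction. The depth is unknown and sets no stated limit here.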

Other observations

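A short unit recurs unchanged in the sequence upstream of Tet2, as part of a longer stretch that repeats with few changes. After the sequence was seen, the longest unit found at least 5 times without overlap was taken, CCGCGAGGGAGCGA, which holds CG itself, and it was searched on both strands. It occurred 5 times in the 250 bases upstream of the Tet2 start, all on the printed strand. Of 32841 promoters, 1 held it (0.0030%), that of Tet2. Since the unit was taken from this stretch, its presence there is given by the choice.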
